A study of Homo sapiens with 6 samples.

Results

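The proteasome is the barrel-shaped protease that degrades ubiquitin-tagged proteins in the cytoplasm and the nucleus. Its core particle is built from rings of α subunits, encoded by the PSMA genes, and β subunits, encoded by the PSMB genes, some of which carry the proteolytic sites. A regulatory cap made of ATPases, encoded by the PSMC genes, and non-ATPase subunits, encoded by the PSMD genes, binds, unfolds and feeds in the substrates. Alternative activators (PSME) and an inhibitor protein (PSMF1) bind the ends of the core, and dedicated chaperones (PSMG) assemble its α ring. Every core subunit is needed in equal copy number, and in mammalian cells transcription of the set is raised by the factor NFE2L1 when proteasome activity is low. Members were chosen by name, as gene symbols made of PSM, a letter from A to G and a number. The rule took 48 of the 27914 genes in the table, 19 of the core, 20 of the cap, 5 activator or inhibitor genes and 4 assembly genes. Of these, 46 reached a mean of 1 TPM over the libraries and were tested. PSMA8 and PSMB11, the core subunits known from testis and thymus, were listed at 0 in all 6 libraries.

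RNA sequencing was done on MCF10A, an immortalised non-tumorigenic breast epithelial line. There were 3 libraries of the genotype labelled α-/-;βin, called PI5P4K-depleted here, and 3 of the wild-type genotype labelled SCRin control, and cells of both groups had received doxycycline for 3 days. SCR, in, α and β are not spelled out in the labels. From the series title, which names PI5P4K, α and β were taken to mean the enzymes of PIP4K2A and PIP4K2B. Nothing in the labels says whether the α-/- cells are 1 clone or whether replicates are separate cultures, so the p-values reflect the spread between libraries, which may be technical.

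PIP4K2A averaged 4.20 ± 0.132 TPM in PI5P4K-depleted cells and 20.6 ± 1.02 TPM in controls (SD, n = 3 each). PIP4K2B averaged 9.49 ± 1.83 TPM in PI5P4K-depleted cells and 21.8 ± 1.21 TPM in controls. Both were called lower by limma (adjusted p = 0.000847 and 0.00985). For PIP4K2B the adjusted p was 0.0602 once control replicate 3 was removed, the highest of its alternatives (0.00607 to 0.0602). PIP4K2C, the remaining PI5P4K gene, was not called. It averaged 34.0 ± 5.70 TPM in PI5P4K-depleted cells and 43.1 ± 4.94 TPM in controls, with a log2 change of -0.34 (limma adjusted p = 0.438). TPM is transcript abundance per length, scaled to the same total in every library, so the number of reads behind a value is unknown. All 6 basal breast epithelial markers reached a mean of 1 TPM, and their summed level was 1705 to 2202 TPM in PI5P4K-depleted and 1007 to 1984 TPM in control libraries. Of 4 leukocyte markers, PTPRC was listed at 0 throughout, and the summed level of the 4, nearly all of it CD14, was 7.10 to 9.48 TPM in PI5P4K-depleted and 2.64 to 6.38 TPM in control libraries. Of 7 fibroblast markers 2 reached a mean of 1 TPM (summed level 2.73 to 6.13 TPM in PI5P4K-depleted and 1.96 to 6.32 TPM in control libraries) and COL3A1 was listed at 0, while of 4 endothelial markers 0 reached it (0.908 to 1.17 TPM in PI5P4K-depleted and 0.533 to 1.81 TPM in control libraries). The part of these marker levels in the results below was not tested. In bulk libraries, fewer cells of a type and less RNA per cell cannot be told apart.

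Of the 46 tested proteasome genes, PSMA2 and PSMG3 were lower in PI5P4K-depleted cells and 0 were higher, while the other 44 did not pass the test. These 2 calls are 4.35% of the tested members, beside 2.19% of all 12096 tested genes called in either direction, 1.83% lower and 0.364% higher. PSMA2 encodes an α-ring subunit and PSMG3 an assembly chaperone of that ring, and both genes lie on the short arm of chromosome 7. The median log2 change over the 46 genes was -0.03, beside -0.01 over all tested genes, and 39 of the 46 changes lay within 0.2 of 0. With libraries rescaled by median-of-ratios factors the member median was 0.005, beside 0.016 over all tested genes, so both medians moved up. In that scaling 21 of 46 member changes lay below 0, in place of 31. Calls were made at a Benjamini-Hochberg adjusted p under 0.05 in a limma fit of log2(TPM + 1) over all tested genes.

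**Figure D1:**
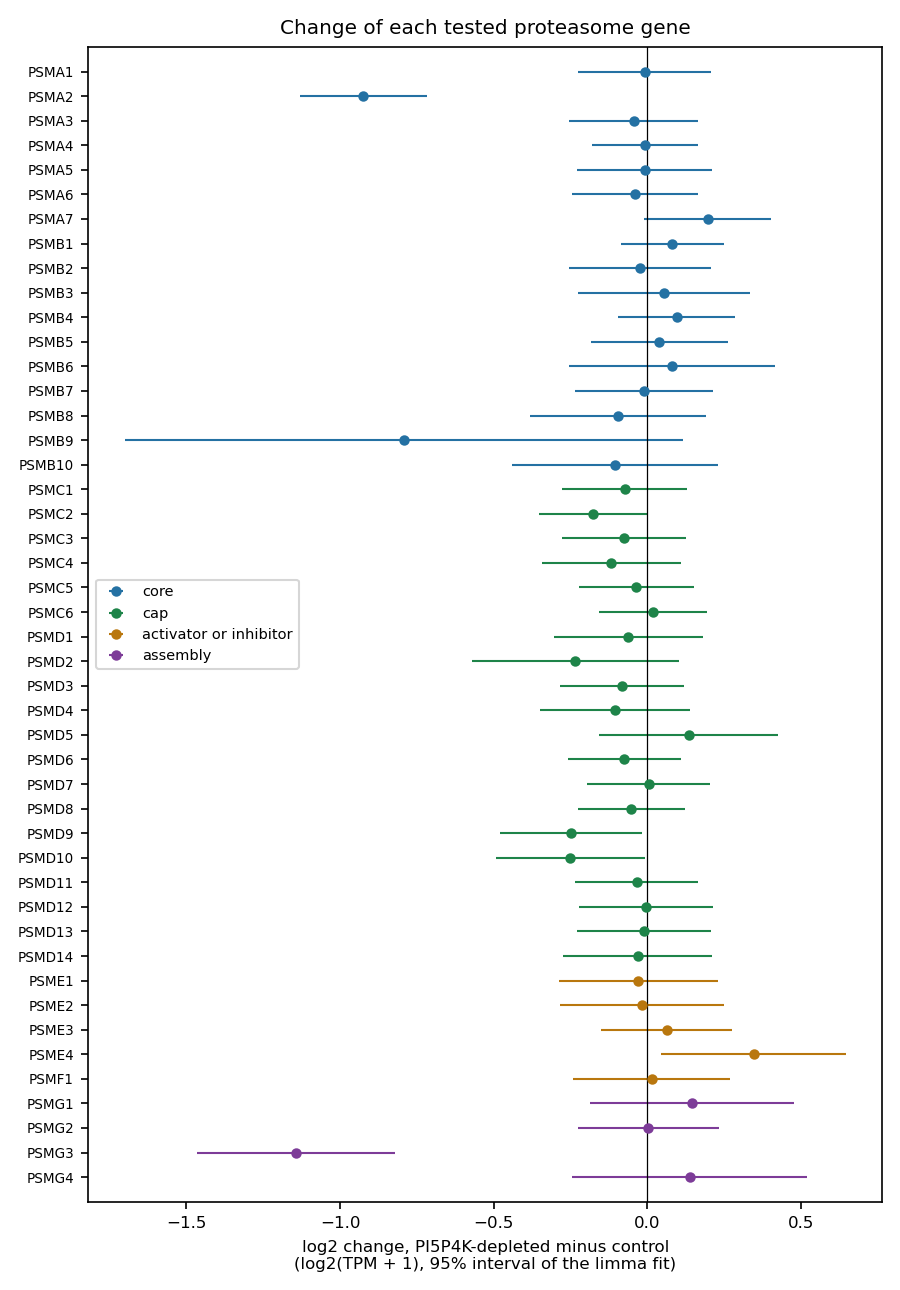
Log2 change (PI5P4K-depleted minus control, on the log2(TPM + 1) scale) of the 46 tested proteasome genes, with the 95% interval of the limma fit and colours for the class. PSMA2 at -0.92 and PSMG3 at -1.14 stand to the left, PSMB9 has the widest interval, and most other genes lie within 0.2 of 0.

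PSMA2 measured 179, 184 and 205 TPM in PI5P4K-depleted replicates 1 to 3, against 352, 380.1 and 348 TPM in control replicates 1 to 3. The groups did not overlap, and the highest PI5P4K-depleted library lay well under the lowest control. The mean was 189 ± 13.4 TPM in PI5P4K-depleted cells and 360.0 ± 17.5 TPM in controls (SD, n = 3 each), which puts PI5P4K-depleted cells at 52.6% of control. The log2 change was -0.92 (SE 0.09, 95% interval -1.13 to -0.72, limma adjusted p = 0.00489). The call held under all 15 alternatives, with adjusted p between 0.00219 and 0.0315.

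The other α-ring genes gave no calls. PSMA1, PSMA3, PSMA4, PSMA5 and PSMA6 had log2 changes between -0.05 and -0.01. PSMA7 measured 380.1, 384 and 418 TPM in PI5P4K-depleted libraries, against 324, 339 and 369 TPM in controls. Its libraries did not overlap but it missed the threshold (log2 change 0.20, 95% interval -0.01 to 0.40, adjusted p = 0.448). PSMA2 made up 9.38%, 9.15% and 10.7% of the summed TPM of the PSMA genes in PI5P4K-depleted libraries, against 17.5%, 17.8% and 16.4% in controls. The summed TPM of the PSMA genes without PSMA2 was 1758 ± 61.6 in PI5P4K-depleted cells and 1730.1 ± 62.3 in controls.

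Within the 14 constitutive core genes (PSMA1 to PSMA7 and PSMB1 to PSMB7), PSMA2 changed its place in the order of levels. It ranked 11th in each PI5P4K-depleted library, against 3rd, 2nd and 5th in control replicates 1 to 3. PSMB4, a non-catalytic β subunit, was the highest in all 6 libraries, and PSMB6, PSMA5 and PSMB2 held the 12th, 13th and 14th place in all 6. The ends of the order were far apart for subunits of equal copy number. PSMB4 averaged 434 ± 3.30 TPM in PI5P4K-depleted cells and 406 ± 26.6 TPM in controls, while PSMB2 averaged 62.4 ± 1.08 TPM in PI5P4K-depleted cells and 63.7 ± 6.30 TPM in controls. Which transcript lengths the deposited TPM rest on is not stated. Between these ends many neighbours in the order overlapped, such as PSMA1 (320.0, 346 and 356 TPM) and PSMA6 (305, 318 and 358 TPM) in PI5P4K-depleted libraries.

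**Figure D2:**
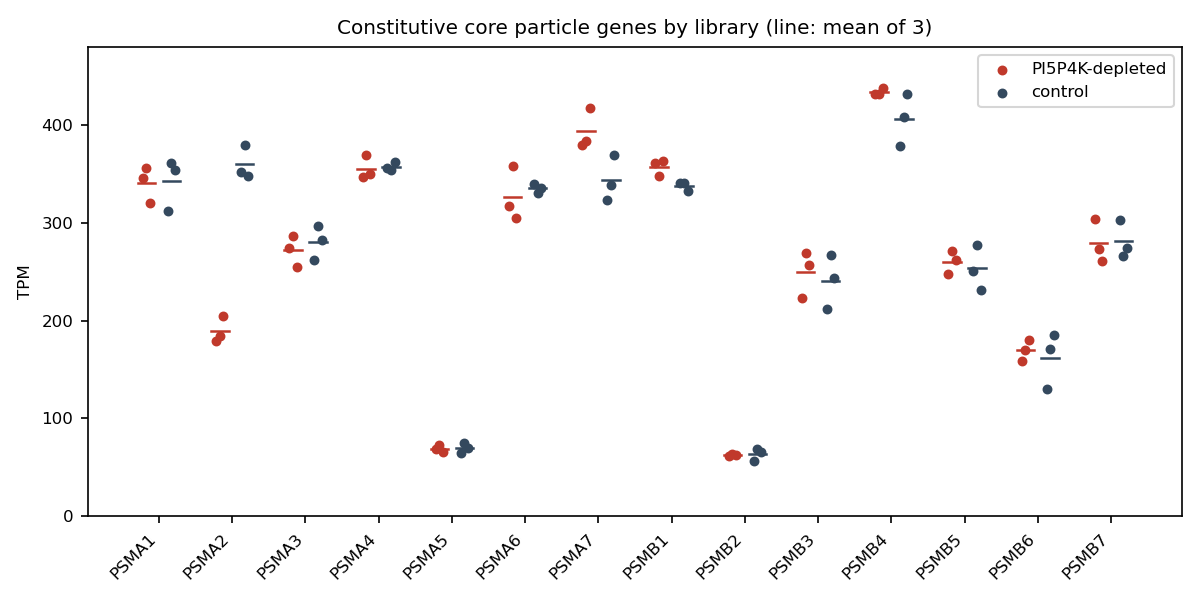
TPM of the 14 constitutive core particle genes in each library, with PI5P4K-depleted libraries in red left of controls in dark blue and a line at each mean of 3. The PSMA2 points of the groups are separated, at 179 to 205 TPM in PI5P4K-depleted and 348 to 380.1 TPM in control libraries, while most other genes overlap and PSMA5 and PSMB2 lie lowest.

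Set against the median of the 13 other constitutive core genes in the same library, PSMA2 lay below them in PI5P4K-depleted cells and above them in controls. Its log2 level relative to that median was -0.76, -0.64 and -0.35 in PI5P4K-depleted libraries, against 0.21, 0.35 and 0.30 in controls. The groups did not overlap, and the difference of -0.87 gave an exact two-sided permutation p of 0.1, the smallest that 3 libraries against 3 allow. Without 1 library at a time the difference ranged from -0.99 to -0.78.

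PSMA2 starts head to head with MRPL32, which encodes a protein of the mitochondrial ribosome, on the opposite strand. In the RefSeq promoter table (GRCh38.p14) their annotated starts are separated by 201 bases, so both genes share 1 upstream region. MRPL32 averaged 146 ± 22.3 TPM in PI5P4K-depleted cells and 251 ± 11.4 TPM in controls (58.3% of control, log2 change -0.79, adjusted p = 0.0247). The MRPL32 call was lost under 5 of 15 alternatives, with no filter on low values (adjusted p = 0.0519), without PI5P4K-depleted replicate 3 and without each control replicate (up to 0.104, over all alternatives 0.0053 to 0.104). The CCAAT box and the 3 GC boxes of the PSMA2 window all lie upstream of both PSMA2 and MRPL32. Whether they bear on the level of either gene was not tested. MRPL32 is among the 13 of 20 tested neighbours of PSMA2 that were called lower, beside 1.83% of all tested genes. Stretches around the CCAAT box and 2 of the GC boxes are shown, read 5′ to 3′ on the PSMA2 strand (minus). The central match of each, CCAAT or GGGCGG read on either strand, is in capitals (GRCh38.p14). The third GC box is the ccgccc that ends the last stretch, left in lower case.
PSMA2 CCAAT box, chr7:42932242-42932269: ctgactctcctCCAATcatagagagtaa
PSMA2 GC box, chr7:42932213-42932240: ggaaaggtgagGGGCGGggaaatgaaag
PSMA2 GC box on the other strand, chr7:42932354-42932381: ctgctggaagaCCGCCCcggtcccgccc
These letters are common, with CCAAT in the windows of 39.7% and GGGCGG in those of 48.3% of 27305 genes (250 bases before to 50 after the start, either strand). Reads of PSMA2 may be shared with other annotated loci. GENCODE release 29 lists 3 pseudogenes named after PSMA2, and exons of MRPL32 and of 2 further loci overlap its exons. Neither strandedness nor the handling of such reads is stated in the labels.

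PSMG3, a chaperone that acts in α-ring assembly together with PSMG4, was the other member that fell. It measured 44.6, 62.6 and 48.3 TPM in PI5P4K-depleted libraries, against 110.4, 122 and 111 TPM in controls. The groups did not overlap. The mean was 51.8 ± 9.51 TPM in PI5P4K-depleted cells and 115 ± 6.73 TPM in controls (SD, n = 3 each), or 45.2% of control. The log2 change was -1.14 (SE 0.14, 95% interval -1.47 to -0.82, limma adjusted p = 0.00811). The call was narrowly lost without PI5P4K-depleted replicate 3 (adjusted p = 0.0524) and without control replicate 3 (adjusted p = 0.0505), at log2 changes of -1.10 and -1.17, and adjusted p ranged from 0.00194 to 0.0524 over all 15 alternatives. Exons of PSMG3 and of its antisense partner PSMG3-AS1 overlap in GENCODE release 29. PSMG3-AS1 lay below the filter, at 0.142 to 0.309 TPM in PI5P4K-depleted libraries and 0.320 to 0.719 TPM in controls.

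The 3 other assembly genes did not pass. PSMG4, the partner of PSMG3, measured 23.9, 28.95 and 22.4 TPM in PI5P4K-depleted libraries, against 20.5, 19.998 and 27.98 TPM in controls (log2 change 0.14, 95% interval -0.24 to 0.52, adjusted p = 0.830). It was the lowest of the 4 in every library. PSMG1, the highest of the 4 in every library, works with PSMG2 in the other α-ring chaperone and measured 127, 171 and 157 TPM in PI5P4K-depleted libraries, against 127, 156 and 127 TPM in controls (log2 change 0.15, adjusted p = 0.777). PSMG2 averaged 108 TPM in both groups (log2 change 0.004, 95% interval -0.23 to 0.23). PSMG3 accounted for 14.9%, 16.8% and 14.4% of the summed TPM of the PSMG genes in PI5P4K-depleted libraries, against 29.3%, 30.0% and 30.6% in controls. Relative to the median of PSMG1, PSMG2 and PSMG4, its log2 level was -1.22, -0.81 and -1.15 in PI5P4K-depleted libraries and -0.10, 0.16 and 0.20 in controls, without overlap (difference -1.15, exact two-sided permutation p = 0.1, again the smallest possible).

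PSMD6, a subunit of the cap's lid that is encoded on the short arm of chromosome 3, did not pass the test. It measured 172, 172 and 166 TPM in PI5P4K-depleted libraries, against 181, 188 and 169.7 TPM in controls. The groups overlapped, since control replicate 3 lay below 2 of the PI5P4K-depleted libraries. The mean was 170.0 ± 3.66 TPM in PI5P4K-depleted cells and 179 ± 9.05 TPM in controls (SD, n = 3 each), with a log2 change of -0.08 (SE 0.08, 95% interval -0.26 to 0.11, limma adjusted p = 0.800). The interval does not reach the estimate for PSMA2. PSMD6 relative to the median of the 19 other cap genes was 0.11, 0.24 and 0.12 in PI5P4K-depleted libraries and 0.19, 0.34 and 0.17 in controls (difference -0.08, exact two-sided permutation p = 0.4). Leaving out 1 library at a time gave differences of -0.12 to -0.02. Against the median of all other tested members, PSMD6 was at 0.12, 0.15 and 0.08 in PI5P4K-depleted libraries and 0.34, 0.27 and 0.17 in controls. The groups did not overlap on that measure, and the difference was -0.14 (exact two-sided permutation p = 0.1, the smallest that 3 against 3 allows). PSMD6 itself changed by only -0.08, so the rest of that difference came from a higher reference level in PI5P4K-depleted libraries. That reference is the level in the middle of the order of members, whereas the median log2 change over all tested members was -0.03.

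**Figure D3:**
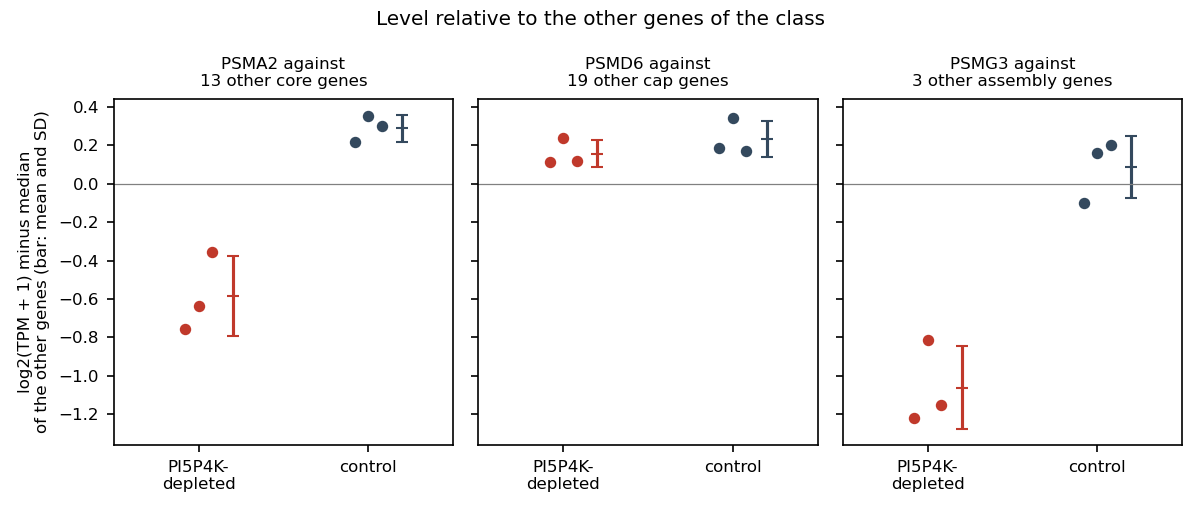
Level of PSMA2, PSMD6 and PSMG3 in each library, as log2(TPM + 1) minus the median of the other constitutive core, cap or assembly genes, with bars for mean and SD (3 PI5P4K-depleted libraries in red left of 3 controls in dark blue). PSMA2 differs by -0.87 and PSMG3 by -1.15 without overlap of the groups, while the PSMD6 points overlap when set against the other cap genes.

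The 3 genes were compared with the 10 tested genes on each side of them in chromosome order. Earlier work on these same libraries had already found genes of the short arm of chromosome 7 lower. The calls around PSMA2 and PSMG3 therefore describe that region and are not independent support. Over all tested genes, 1.83% were called lower and 0.364% higher. Around PSMA2, 13 of 20 neighbours were called lower and 0 higher, 19 of 20 had a log2 change below 0, and the median was -0.92, beside -0.92 for PSMA2 itself. Its nearest tested neighbours were MRPL32 and C7orf25, which averaged 17.4 TPM in PI5P4K-depleted cells and 40.1 TPM in controls (log2 change -1.17, adjusted p = 0.00815). Around PSMG3, 15 of 20 neighbours were called lower and 0 higher, and all 20 had a change below 0 (median -0.83). The nearest were MAD1L1, a spindle checkpoint protein, at 13.5 TPM in PI5P4K-depleted cells and 33.5 TPM in controls, and TMEM184A, a membrane protein, at 1.92 TPM in PI5P4K-depleted cells and 5.60 TPM in controls, both called lower. Around PSMD6, 0 of 20 neighbours were called, 11 had a change below 0, and the median was -0.01. ATXN7, a subunit of a histone acetylase complex, averaged 11.02 TPM in PI5P4K-depleted cells and 11.08 TPM in controls. PRICKLE2, a planar polarity protein, averaged 3.06 TPM in PI5P4K-depleted cells and 3.56 TPM in controls.

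The remaining members on these chromosomes were PSMC2, an ATPase gene on the long arm of chromosome 7, and PSMD2, a cap scaffold gene on the long arm of chromosome 3. PSMC2 measured 81.9, 77.7 and 78.0 TPM in PI5P4K-depleted libraries, against 90.5, 88.6 and 89.7 TPM in controls. Its groups did not overlap but it missed the threshold (log2 change -0.18, 95% interval -0.35 to -0.0005, adjusted p = 0.419). PSMD2, the highest cap gene in every library, measured 423, 351 and 472 TPM in PI5P4K-depleted libraries, against 458, 444 and 562 TPM in controls. The PSMD2 groups overlapped (log2 change -0.23, 95% interval -0.57 to 0.10, adjusted p = 0.614).

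**Figure D4:**
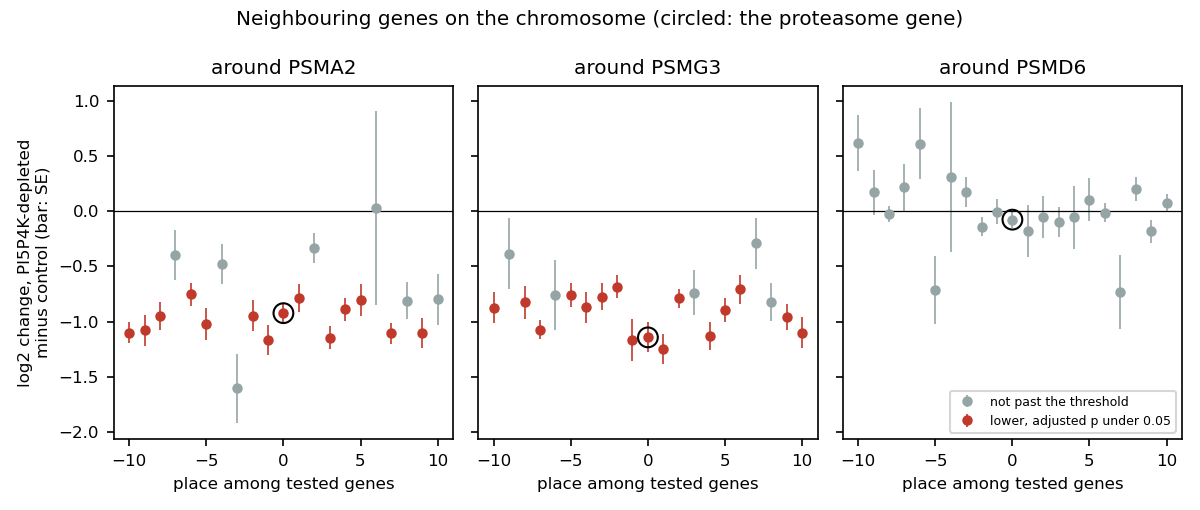
Log2 change (PI5P4K-depleted minus control, bars for SE) of the 10 tested genes on each side of PSMA2, PSMG3 and PSMD6 by place in RefSeq gene order, with the proteasome gene circled and genes called lower in red. Calls surround PSMA2 (13 of 20 neighbours) and PSMG3 (15 of 20), and 0 of 20 neighbours of PSMD6 were called.

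Apart from PSMA2 and PSMG3, core and cap genes gave no calls. Of 17 tested core genes, 1 was called lower and the median log2 change was -0.01 (11 of 17 below 0). With median-of-ratios scaling 6 of 17 were below 0 and the core median was 0.023, beside 0.016 over all tested genes. Of 20 cap genes, 0 were called, the median was -0.07 and 17 of 20 were below 0 (14 of 20 and -0.04 with median-of-ratios scaling). At an unadjusted p under 0.05 there were 3 cap genes, and the members as a whole had 6 of 46, or 13.04%, beside 11.9% of all tested genes. The summed TPM of the cap genes was 79.0%, 74.1% and 77.8% of that of the core genes in PI5P4K-depleted libraries, against 81.2%, 77.3% and 81.3% in controls, with overlap between the groups. PSMA2 is itself in the core sum. With PSMA2 left out of it, the share was 82.95%, 77.8% and 82.2% in PI5P4K-depleted libraries, against 89.6%, 85.5% and 89.2% in controls, and the groups did not overlap. Both versions of the share were added after the data were seen. The summed cap TPM was 2958, 2875 and 2948 in PI5P4K-depleted libraries (mean 2927), against 3027, 3081 and 3204 in controls (mean 3104). The groups did not overlap for this sum, and the difference was not tested. PSMD2 alone, not called and with overlapping groups, averaged 415 TPM in PI5P4K-depleted cells and 488 TPM in controls. Groups did not overlap for 7 members, 5 lower and 2 higher, or 15.2%, beside 17.1% of all tested genes, 11.4% lower and 5.64% higher. Of the 44 members that were not called, 40 had a 95% interval within 0.5 of 0 on the log2 scale, the exceptions being PSMB9, PSMD2, PSME4 and PSMG4.

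The ATPase genes PSMC1 to PSMC6 had log2 changes between -0.18 and 0.02. PSMD4 and PSMD14 were not called. PSMD4, a ubiquitin receptor, averaged 193 ± 17.3 TPM in PI5P4K-depleted cells and 208 ± 16.4 TPM in controls, and PSMD14, the deubiquitinase of the lid, averaged 210.0 ± 21.8 TPM in PI5P4K-depleted cells and 214 ± 11.3 TPM in controls. PSMD5, PSMD9 and PSMD10 are named as cap genes but are known as chaperones of cap assembly that are not part of the finished complex. PSMD9, the lowest cap gene by mean, measured 29.6, 30.4 and 33.9 TPM in PI5P4K-depleted libraries, against 37.0, 35.3 and 39.9 TPM in controls. PSMD10, known as gankyrin, measured 51.3, 62.3 and 55.4 TPM in PI5P4K-depleted libraries, against 63.0, 67.3 and 70.9 TPM in controls. The groups of PSMD9 and PSMD10 did not overlap, each had a log2 change of -0.25, and both missed the threshold (adjusted p = 0.372 and 0.400). PSMD5 had a log2 change of 0.13 with overlapping groups.

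The catalytic β subunits exist in a constitutive and an interferon-inducible form, and the inducible genes PSMB8, PSMB9 and PSMB10 were low in both groups. PSMB8, which replaces PSMB5, measured 22.6, 22.8 and 27.7 TPM in PI5P4K-depleted libraries, against 24.4, 24.9 and 28.9 TPM in controls. That was 9.12%, 8.42% and 10.6% of the PSMB5 level in PI5P4K-depleted libraries and 9.69%, 8.97% and 12.5% in controls. PSMB10, which replaces PSMB7, stood at 6.62%, 5.30% and 7.66% of PSMB7 in PI5P4K-depleted libraries and 6.24%, 7.18% and 7.42% in controls. For both genes the groups overlapped.

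PSMB9, which replaces PSMB6, was the lowest tested member. It measured 0.645, 0.533 and 2.22 TPM in PI5P4K-depleted libraries, against 1.91, 1.82 and 4.16 TPM in controls. Replicate 3 was the highest of each group, and the groups overlapped through it. The log2 change was -0.79 with an interval too wide to place it (-1.70 to 0.12, adjusted p = 0.502). PSMB9 was 0.405%, 0.314% and 1.23% of PSMB6 in PI5P4K-depleted libraries and 1.46%, 1.06% and 2.24% in controls. Over the 3 catalytic pairs, exact two-sided permutation p was 0.6, 0.2 and 0.7 for PSMB8, PSMB9 and PSMB10, and 0.7, 0.6 and 0.7 after Benjamini-Hochberg adjustment over the 3 pairs, at log2 differences of -0.14, -0.87 and -0.10. Leaving out 1 library at a time gave differences of -0.23 to 0.002 for PSMB8, -1.17 to -0.68 for PSMB9 and -0.21 to 0.04 for PSMB10, and the sign turned for PSMB8 without control replicate 3 and for PSMB10 without PI5P4K-depleted replicate 2. With a pseudocount of 0.1 in place of 1 the PSMB9 difference was -1.38. Exons of PSMB8, PSMB9 and PSMB8-AS1 overlap in GENCODE release 29, so their reads may be shared.

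**Figure D5:**
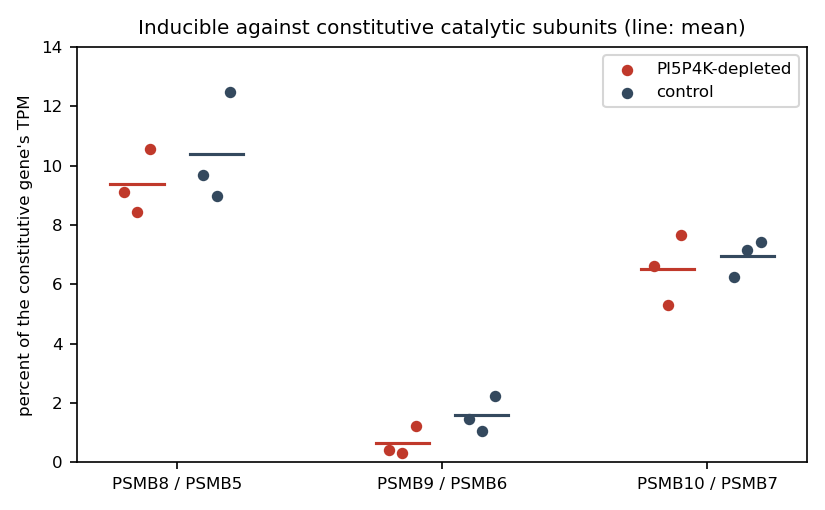
TPM of each interferon-inducible catalytic subunit as a percent of the constitutive subunit it replaces, in each library, with PI5P4K-depleted libraries in red left of controls in dark blue and a line at each mean. The percentages stay below 13 in all 6 libraries, and the groups overlap for each of the 3 pairs.

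The constitutive catalytic genes were not called. PSMB5 averaged 260.0 ± 11.9 TPM in PI5P4K-depleted cells and 253 ± 23.1 TPM in controls (SD, n = 3 each). PSMB6 averaged 169.9 ± 10.8 TPM in PI5P4K-depleted cells and 162 ± 28.8 TPM in controls, and PSMB7 279 ± 22.3 TPM in PI5P4K-depleted cells and 281 ± 19.6 TPM in controls. Their log2 changes were 0.04, 0.08 and -0.01. PSMB1, a non-catalytic subunit, measured 362, 348 and 364 TPM in PI5P4K-depleted libraries, against 341, 340.4 and 333 TPM in controls. Its groups did not overlap but it missed the threshold (log2 change 0.08, adjusted p = 0.746).

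Of the 5 activator and inhibitor genes, 0 were called. PSME1 and PSME2, the interferon-inducible activator subunits, had log2 changes of -0.03 and -0.02, and PSME3, the nuclear activator and highest of the 5, averaged 168 ± 8.05 TPM in PI5P4K-depleted cells and 161 ± 12.6 TPM in controls. PSMF1, the inhibitor and lowest of the 5, averaged 22.7 ± 0.807 TPM in PI5P4K-depleted cells and 22.5 ± 2.52 TPM in controls. PSME4, a large activator linked to the degradation of histones, measured 74.4, 84.0 and 84.1 TPM in PI5P4K-depleted libraries, against 57.4, 75.4 and 58.6 TPM in controls. Control replicate 2 lay above 1 PI5P4K-depleted library, and the gene missed the threshold (log2 change 0.35, 95% interval 0.05 to 0.65, adjusted p = 0.343). Adjusted p for PSME4 lay between 0.068 and 0.703 over the alternatives.

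Genes that work with the proteasome were also mostly without calls. The list held further subunits and chaperones, ubiquitin shuttles, ubiquitin genes and the NFE2L1 pathway. Of its 32 tested genes 1 was lower and 0 were higher, beside 1.83% lower and 0.364% higher of all tested genes. The median log2 change of the list was -0.02. The lower gene was ZFAND2A, an arsenite-inducible zinc finger protein that binds the proteasome and lies 5 tested genes from PSMG3. It measured 19.1, 20.1 and 21.2 TPM in PI5P4K-depleted libraries, against 30.6, 36.1 and 38.1 TPM in controls. The groups did not overlap (log2 change -0.76, SE 0.11, limma adjusted p = 0.0177). The call was lost without each library except control replicate 1 (adjusted p 0.0661 to 0.0900, over all alternatives 0.00431 to 0.0900). NFE2L1, the transcription factor of the proteasome genes, averaged 68.3 ± 6.38 TPM in PI5P4K-depleted cells and 62.8 ± 9.44 TPM in controls. POMP, the maturation chaperone of the core, averaged 312 ± 32.8 TPM in PI5P4K-depleted cells and 316 ± 25.3 TPM in controls, and neither passed.

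NFE2L1 and its relative NFE2L2 act through antioxidant response elements, so the RefSeq promoter windows of the members were searched for the core letters TGACNNNGC on either strand. Of the 48 members, 42 matched a window, and 15 of these 42 (35.7%) held the letters, beside 16.1% of 27305 genes. Other motifs were also more frequent in the 42 members. The GC box was found in 69.0%, beside 48.3% of genes, and the CCAAT box in 47.6%, beside 39.7%. The part of base composition in these shares was not tested. Median log2 changes were -0.02 over the 15 members with the letters and -0.04 over the 25 tested members with a window without them. Sites of PSMD9 and PSME4 are shown because their changes lay at opposite ends among members with the letters and at least 5 TPM, and a site of PSMD12, a lid subunit, because its change was close to 0. The match is in capitals and each stretch is read 5′ to 3′ on the gene's strand (GRCh38.p14). For PSME4 the match lies on the opposite strand.
PSMD9 (plus strand), chr12:121888679-121888706: ggcttccggTGACCCAGCtccgccctaa
PSME4 (minus strand), chr2:53971009-53971036: ccggcggctGCAGCGTCAccagcagagc
PSMD12 (minus strand), chr17:67366724-67366751: gacaaaaccTGACGCTGCaggctggagt
The 3 genes had log2 changes of -0.25, 0.35 and -0.005, and each missed the threshold.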

How the data were processed

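RNA from MCF10A cells (3 PI5P4K-depleted and 3 control libraries) was sequenced on an Illumina instrument, per the labels' protocols. The authors deposited 1 table of TPM for 27914 genes named by symbol. Per the submitters' processing notes, hg19 was the build used. No aligner, quantifier or annotation is named in these sources. Control columns were matched to samples by name and replicate number, and the columns headed expt were given by replicate number to the group that was left.

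The log2(TPM + 1) scale was used, on which changes of low genes are understated. Genes averaging 1 TPM or more over the 6 libraries (12096) entered a limma fit (limma 3.58.1, R 4.3.3; empirical Bayes with a trend of variance on mean, two-sided tests), and p-values were adjusted over all tested genes by the Benjamini-Hochberg method. The fit was tested on data simulated with the spread of each gene and 200 changed genes. It called 69% of genes changed by 1 on the log2 scale and 90% of those changed by 2. Of its calls 6.47% were false, at the threshold of 0.05. Smaller changes were not simulated. Levels relative to other genes were compared by exact permutation over libraries. Chromosome order and promoter windows came from RefSeq GRCh38.p14, which is not the authors' build, and overlapping exons and pseudogenes from GENCODE release 29. The members, the lists, PSMG3 as a gene tested by name and the comparison with neighbours were chosen with earlier results of these data known. Full values are given for called members, PSMA2, PSMD6, PSMG3, the catalytic subunits and the highest and lowest gene of each class, and other genes given in full were chosen after their values were seen. Likeness to PSMA2 across libraries is not given, because its libraries fall into separate clusters. A further marker gene is not reported here.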

Additional observations from a re-analysis of the deposited data

How the results depend on the processing

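The counts of calls changed when libraries were left out. Each removal takes a group from 3 libraries to 2, which itself makes calls harder to reach. For a lost call, that effect and the effect of the particular library cannot be told apart. Leaving out 1 library at a time gave 106 to 219 calls over all genes in place of 265 (106 without control replicate 3, 119 without PI5P4K-depleted replicate 3, 163 without PI5P4K-depleted replicate 1), 1 or 2 calls among the members, and 0 or 1 in the list of genes that work with the proteasome. The log2 change over the same removals was -0.98 to -0.88 for PSMA2, -1.28 to -1.05 for PSMG3, -0.11 to -0.04 for PSMD6 and -1.27 to -1.04 for PIP4K2B. The PSMB9 to PSMB6 difference was -1.38 with a pseudocount of 0.1, against -0.87. The cap share of core TPM differed by -2.97 percentage points between PI5P4K-depleted and control libraries (-4.28 to -1.56 over the same removals), and by -7.10 with PSMA2 left out of the core sum. This whole comparison, with and without PSMA2, was added after the data were seen. The PSMD6 difference was -0.14 against all other tested members, in place of -0.08 against the other cap genes. The 44 other members were called under 0 of the alternatives. Other pseudocounts, filters, scalings and variance models left the member calls at 2. With the replicate number as a block, 881 genes were called, with the same 2 member calls. The lowest adjusted p of the other members with that block was 0.051, for PSMA7, against 0.448 in the main limma fit. Deviations from the group means correlated at 0.246 and 0.269 for numbers 1 and 2 but at -0.015 for number 3. PI5P4K-depleted 2 against control 1 gave -0.238, and PI5P4K-depleted 1 against control 2 gave -0.293. The other unlike numbers gave -0.0356 to 0.0526. The main fit did not take the numbers as pairs, and whether equal numbers share a batch was not tested. Read depth is unknown, which limits what low values such as those of PSMB9 can show.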
